A study of Mus musculus with 6 samples.

Results

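The Wnt-driven pericentral genes Glul, Axin2, Lgr5, Tbx3, Rnf43, Znrf3, Lhpp, Slc1a2, Rhbg and Sp5 were described in bulk liver polyA RNA of male C57BL/6NJ mice. The 10 symbols were looked up by name among the 24982 genes of the deposited count tables, and all 10 were found. The high fat high sugar (HFHS) group held 3 samples from mice given a fat-rich diet with sugar in the drinking water, and the chow group held 3 samples from mice on chow, each for 54 weeks. The labels give strain, sex and tissue as the same in both groups, name no genetic change, and do not say whether a sample held tumour tissue or RNA from more than 1 mouse.

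In the liver lobule, blood runs from the portal vein to the central vein, and hepatocytes differ along that path. Endothelial cells of the central vein secrete Wnt ligands and the Wnt amplifier R-spondin 3, and the hepatocytes around the vein answer through β-catenin. Those cells take up ammonia and glutamate and make glutamine, the last chance to clear ammonia before blood leaves the liver. Glul, Slc1a2 and Rhbg do this work, and with the phosphatase Lhpp these enzymes and transporters are called the metabolic members below. The others sense, restrain or relay the Wnt signal (Lgr5, Rnf43, Znrf3, Axin2, Tbx3, Sp5). Sorting the members by these roles was done after their values were seen.

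Of the 10 members, 0 passed the test for a diet difference by edgeR's quasi-likelihood F test (adjusted p here means Benjamini-Hochberg over the 12949 genes tested, with a threshold of 0.05), and 2 had an unadjusted p under 0.05, Glul and Lhpp. Over all genes tested, 11.0% were called higher and 3.61% lower in the HFHS group, 14.6% in either direction. DESeq2 called Glul higher and Lhpp lower, and limma-voom called 0. Levels are CPM, read counts relative to library size, scaled by TMM, a scaling that takes most genes as unchanged. The median log2 fold change of the members, HFHS over chow, was -0.29, beside -0.02 over all genes tested and -0.52 over the 12 hepatocyte markers described below. A positive value was found for 2 of the 10 members, 6174 of all 12949 genes tested and 1 of the 12 hepatocyte markers. Only Glul had the libraries of one diet all above those of the other, where 39.5% of all genes tested were separated one way or the other.

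**Figure D1:**
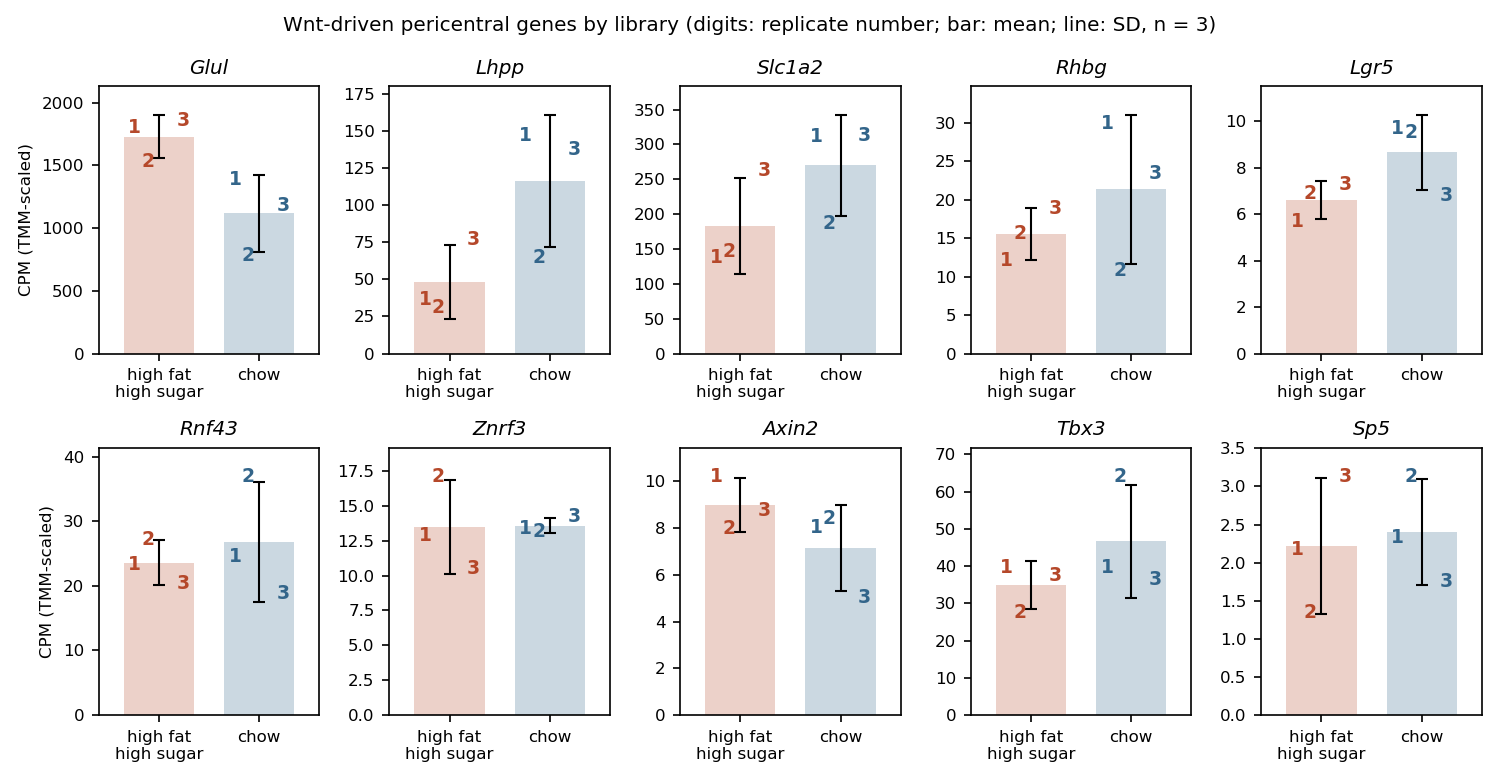
Level of each member in every library, in TMM-scaled CPM on a linear axis from 0, with the HFHS group left of chow. Digits are replicate numbers, bars are means and lines are SD (n = 3 each). Glul is the one gene whose groups do not overlap, and chow replicate 2 is the lowest chow library for Glul, Lhpp, Slc1a2 and Rhbg.

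The liver label held against its markers, and marker RNA of other cell types differed between the diets. The 12 hepatocyte markers summed to between 70968 and 122456 CPM in the HFHS libraries and between 125509 and 147024 CPM in chow, with no marker at 0 in all libraries. Of the 12, edgeR called 0 (5 at an unadjusted p under 0.05), limma-voom 0, and DESeq2 5 lower. Alb, the largest part of the sum, overlapped between the diets (24173 to 71089 CPM in HFHS, against 69128 to 89699 in chow), and Trf, the next largest in mean, lay the other way (16178 to 19542 CPM in HFHS, against 14997 to 16289 in chow). Endothelial markers rose in 6 of 10 genes tested (summed 380.2 to 449 CPM in HFHS, against 249.7 to 315 in chow), stellate and myofibroblast markers in 8 of 10 (527 to 1039.6 CPM in HFHS, against 191 to 248 in chow), bile duct markers in 6 of 8 (185 to 306 CPM in HFHS, against 39.9 to 59.0 in chow) and macrophage markers in 6 of 8, with 1 lower (682 to 1073 CPM in HFHS, against 233 to 334 in chow). Of 6 liver tumour markers tested, 5 rose (H19, Spink1, Afp, Top2a and Mki67), with the summed list at 21.7 to 36.2 CPM in HFHS, against 3.96 to 7.68 in chow. The other, Gpc3, averaged 0.57 CPM in HFHS and 0.73 in chow (log2 fold change -0.30) and did not pass. Igf2, also listed, had too few counts to test. Without chow replicate 3, edgeR called 0 genes higher in each of these 5 lists, with 5 to 9 of each at an unadjusted p under 0.05. Over all 13305 genes tested in that fit, 4 were called higher and 2 lower. A call lost in it, here or below, is therefore not particular to a gene or list. With any other library left out, calls higher numbered 2 to 7 for endothelial, 3 to 8 for stellate, 3 to 6 for bile duct, 4 to 6 for macrophage and 3 to 5 for tumour markers, with endothelial markers at 2 without HFHS replicate 1 or chow replicate 1 and the stellate, macrophage and tumour lists lowest without chow replicate 2. Their part in the values below was not tested. In bulk RNA, fewer hepatocytes and less RNA per hepatocyte cannot be told apart. Gene counts ranged from 17647882 to 20585366 per HFHS library and from 16565335 to 20005873 per chow library. HFHS replicate 2 stood apart, with the highest macrophage, stellate and bile duct sums and the lowest hepatocyte sum.

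Glul encodes glutamine synthetase, which joins ammonia to glutamate in the innermost pericentral hepatocytes (GRCm38.p6 chromosome 1, 153899929 to 153909723). It had 1801, 1531 and 1858 CPM in HFHS replicates 1, 2 and 3, against 1389, 783 and 1180.3 CPM in chow replicates 1, 2 and 3. Every HFHS library lay above every chow library, and the lowest value, in chow replicate 2, was below the rest. The means were 1729.9 ± 175 CPM in the HFHS group and 1118 ± 308 CPM in chow (SD, n = 3 each). The log2 fold change was 0.63 ± 0.25 (SE), with a 95% interval of 0.05 to 1.21, and did not pass (edgeR adjusted p = 0.126). Without chow replicate 2 it was 0.42. It passed with DESeq2 (adjusted p = 0.0322), and when libraries were scaled by total counts alone (0.89, adjusted p = 0.0284) or by the hepatocyte markers (1.12, adjusted p = 0.00827). Those scalings moved the median of all genes by 0.27 and 0.49, so that relative to all genes Glul moved little between them.

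Lhpp, a phosphatase that acts on phosphohistidine and pyrophosphate (chromosome 7, 132610615 to 132706420), had 36.5, 31.2 and 76.8 CPM in the HFHS libraries, against 147, 65.1 and 137 CPM in chow. Its groups overlapped through 2 libraries, HFHS replicate 3 above chow replicate 2. The log2 fold change was -1.28 ± 0.44 (SE), with a 95% interval of -2.33 to -0.23, and did not pass (edgeR adjusted p = 0.0979). It passed without HFHS replicate 3 (-1.79, adjusted p = 0.0304), and across the other left-out libraries the value ran from -1.57 to -1.03. It also passed with DESeq2 (adjusted p = 0.00903).

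Slc1a2, the glutamate transporter GLT-1 (chromosome 2, 102658239 to 102790784), had 138, 147 and 262 CPM in the HFHS libraries, against 312, 186 and 312 CPM in chow. Replicates 1 and 2 of the HFHS group lay below all of chow, and replicate 3 lay inside the chow range. Its log2 fold change was -0.57 ± 0.31 (SE; 95% interval -1.29 to 0.15; edgeR adjusted p = 0.248). It was -0.93 without HFHS replicate 3 (adjusted p = 0.0531), and -0.08 when scaled by hepatocyte markers. Rhbg, an ammonia transporter of the Rh family (chromosome 3, 88242874 to 88254739), had 12.1, 15.5 and 18.9 CPM in the HFHS libraries, against 29.9, 10.8 and 23.4 CPM in chow. All HFHS values lay inside the wide chow range, and the log2 fold change was -0.46 ± 0.36 (SE; 95% interval -1.31 to 0.39). It came to -0.15 without chow replicate 1 and to -0.79 without chow replicate 2 (adjusted p = 0.0816). In the GENCODE M21 annotation 61.4% of the exon bases of Rhbg are shared with a gene on the same strand, Gm38392. That gene is not among those of the deposited counts. The rule for overlapping genes is not given, so whether the overlap affected the Rhbg count is not known.

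Among the metabolic members the log2 fold change was positive for Glul and negative for Lhpp, Slc1a2 and Rhbg. Ratios of counts within a library do not depend on scaling. Glul was put on top of them because it was the one separated member, so they are a description, with no test. The ratio of Glul to Lhpp was 49.4, 49.1 and 24.2 in the HFHS libraries, against 9.45, 12.0 and 8.59 in chow, a log2 difference of 1.97. Each HFHS ratio was above each chow ratio, also for Glul to Slc1a2 (13.01, 10.4 and 7.10 in HFHS, against 4.45, 4.20 and 3.78 in chow) and for Glul to Rhbg (148, 98.5 and 98.4 in HFHS, against 46.5, 72.3 and 50.5 in chow). Over the 9 other members, the ratio of Glul was separated upward for 5 (these 3, Lgr5 and Tbx3) and overlapped for Axin2, Rnf43, Znrf3 and Sp5. The ratio to the pericentral gene Cyp2e1 was separated upward too (0.429, 0.269 and 0.195 in HFHS, against 0.123, 0.0989 and 0.104 in chow). So was the ratio to the hepatocyte marker Alb (0.0253, 0.0633 and 0.0369 in HFHS, against 0.0178, 0.0113 and 0.0132 in chow). The share of all genes with a separated ratio was not counted.

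**Figure D2:**
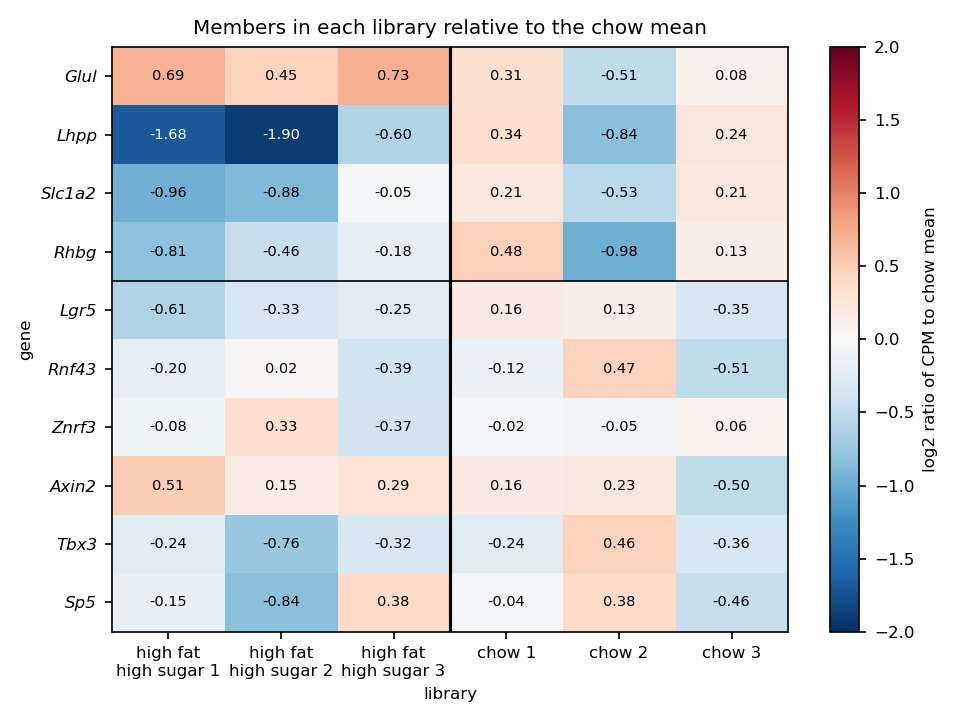
Log2 ratio of each member's CPM to its chow mean, with the HFHS libraries in the left columns and chow in the right ones, and metabolic members above the line, signalling members below it. Glul is positive in all HFHS libraries (0.45 to 0.73), while Lhpp, Slc1a2 and Rhbg are negative in them (-1.90 to -0.05).

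Lgr5, the R-spondin receptor that also marks stem cells of the gut (chromosome 10, 115450314 to 115587780), had 5.68, 6.89 and 7.26 CPM in the HFHS libraries, against 9.68, 9.51 and 6.80 CPM in chow. The groups overlapped through chow replicate 3. Its log2 fold change was -0.39 ± 0.19 (SE), with a 95% interval of -0.84 to 0.06 (edgeR adjusted p = 0.209), and the sign turned to 0.10 when libraries were scaled by hepatocyte markers.

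Rnf43 and Znrf3 are membrane ubiquitin ligases that remove Frizzled receptors from the cell surface, and Wnt signalling induces them as a brake. Rnf43 (chromosome 11, 87663087 to 87735539) had 23.3, 27.2 and 20.4 CPM in the HFHS libraries, against 24.6, 37.0 and 18.8 CPM in chow. Znrf3 (chromosome 11, 5276329 to 5444847) had 12.9, 17.1 and 10.5 CPM in the HFHS libraries, against 13.4, 13.1 and 14.2 CPM in chow. Both pairs of groups overlapped, and the highest Znrf3 value was in HFHS replicate 2. The log2 fold changes were -0.18 ± 0.25 for Rnf43 (SE; 95% interval -0.76 to 0.39) and -0.01 ± 0.19 for Znrf3 (SE; 95% interval -0.44 to 0.43), both with signs that turned with the scaling.

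Axin2, the feedback scaffold of the β-catenin destruction complex and a widely used readout of Wnt signalling (chromosome 11, 108917828 to 108950783), had 10.2, 7.97 and 8.77 CPM in the HFHS libraries, against 8.01, 8.41 and 5.05 CPM in chow. The groups overlapped, with chow replicate 3 the lowest. The log2 fold change was 0.32 ± 0.22 (SE), with a 95% interval of -0.19 to 0.84 (edgeR adjusted p = 0.355), and 0.12 without chow replicate 3. Scaled by hepatocyte markers it was 0.79 and passed (adjusted p = 0.0412), against a shift of 0.49 in the median of all genes.

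Tbx3, a T-box repressor that β-catenin induces in liver (chromosome 5, 119670534 to 119684724), had 39.6, 27.6 and 37.4 CPM in the HFHS libraries, against 39.5, 64.1 and 36.5 CPM in chow. Chow replicate 2 was high and the other 5 libraries lay close together or lower, and the log2 fold change of -0.42 ± 0.24 (SE; 95% interval -0.99 to 0.14) came to -0.13 without that library. Sp5, a zinc finger factor induced by Wnt (chromosome 2, 70474923 to 70477726), had the lowest counts of the members, 42, 35 and 56 in the HFHS libraries, against 42, 57 and 26 in chow. That corresponded to 2.17, 1.35 and 3.13 CPM in the HFHS libraries, against 2.34, 3.14 and 1.75 CPM in chow, with full overlap and a log2 fold change of -0.14 ± 0.38 (SE; 95% interval -1.01 to 0.74).

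**Figure D3:**
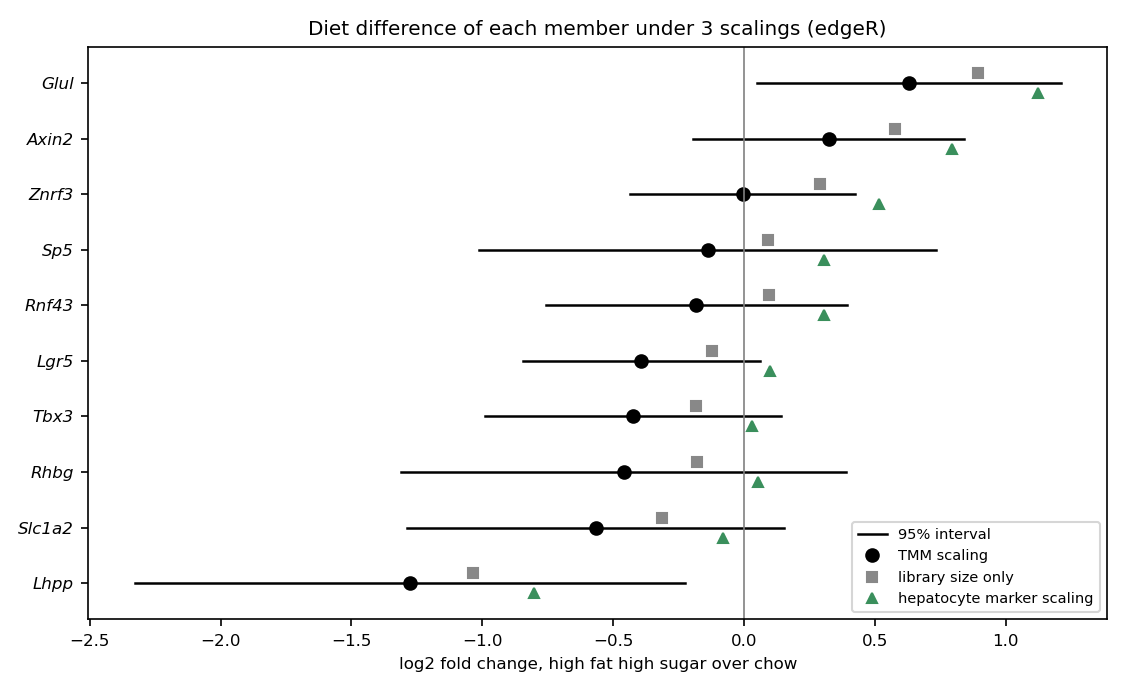
Log2 fold change of each member, HFHS over chow (x axis), by gene. Circles and lines give the TMM estimate of edgeR with its 95% interval, squares the value scaled by library size only and triangles the value scaled by hepatocyte markers. Intervals of Glul and Lhpp do not reach 0, and the other 8 cross it.

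Levels were compared between genes only per kilobase of exon (union of GENCODE M21 exons). Glul stood far above the rest with 521 CPM per kb in the HFHS group and 336 in chow. Next came Lhpp (19.9 in HFHS, 48.2 in chow), Slc1a2 (13.9 in HFHS, 20.6 in chow), Rhbg (8.01 in HFHS, 11.0 in chow), Tbx3 (5.27 in HFHS, 7.05 in chow) and Rnf43 (3.60 in HFHS, 4.09 in chow), in the same order of mean CPM per kb in both groups. Znrf3 (1.71 in HFHS, 1.72 in chow), Axin2 (1.63 in HFHS, 1.30 in chow), Sp5 (1.05 in HFHS, 1.15 in chow) and Lgr5 (0.644 in HFHS, 0.844 in chow) were lowest. In chow the libraries of Slc1a2 and Rhbg, Rhbg and Tbx3, Tbx3 and Rnf43, Axin2 and Sp5, and Sp5 and Lgr5 overlapped in CPM per kb, so the order of these neighbours is not settled by their spread. In the HFHS group the libraries of Lhpp and Slc1a2, and of each neighbouring pair among Znrf3, Axin2, Sp5 and Lgr5, overlapped.

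RefSeq windows of 250 bases before to 50 bases after a transcript start were given for Glul, Axin2, Rnf43, Slc1a2 and Sp5 (6 windows of 300 bases, build GRCm38.p6). They were searched on both strands for CTTTGAT and CTTTGAA, cores of the site bound by the TCF and LEF partners of β-catenin. CTTTGAT was found in Sp5, with its first base at -104 from the transcript start, and on the other strand in Slc1a2, at -207 from its transcript start, and CTTTGAA in none. The transcript start of the Slc1a2 window lies 48199 bases inside the gene as given above. That of the Axin2 window lies 2521 bases inside, and that of the second Rnf43 window 36810 bases inside. Of 32851 windows of that length in the table, 3.73% held CTTTGAT and 5.14% held CTTTGAA. The windows of Sp5 and Slc1a2 are shown for their matches, in capitals, and that of Glul as the member whose groups did not overlap, at chr2:70474673-70474972, chr2:102706188-102706487 and chr1:153899679-153899978, all on the plus strand.
Sp5: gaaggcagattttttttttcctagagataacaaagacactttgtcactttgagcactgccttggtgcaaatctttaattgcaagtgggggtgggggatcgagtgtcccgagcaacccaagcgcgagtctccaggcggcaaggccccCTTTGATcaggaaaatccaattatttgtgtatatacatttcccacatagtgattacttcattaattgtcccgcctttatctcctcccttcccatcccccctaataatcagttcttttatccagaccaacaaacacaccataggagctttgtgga
Slc1a2: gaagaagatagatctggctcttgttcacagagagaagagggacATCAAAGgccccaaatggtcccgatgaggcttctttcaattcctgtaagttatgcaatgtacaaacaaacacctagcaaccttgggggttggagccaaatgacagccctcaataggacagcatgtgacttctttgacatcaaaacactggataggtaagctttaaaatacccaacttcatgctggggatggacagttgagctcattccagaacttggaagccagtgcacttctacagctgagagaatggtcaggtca
Glul: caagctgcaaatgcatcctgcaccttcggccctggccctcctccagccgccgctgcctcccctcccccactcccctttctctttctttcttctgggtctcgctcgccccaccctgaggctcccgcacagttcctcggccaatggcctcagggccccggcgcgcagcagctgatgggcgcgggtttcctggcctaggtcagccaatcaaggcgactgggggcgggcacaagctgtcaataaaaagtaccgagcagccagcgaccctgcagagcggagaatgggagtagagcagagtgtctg

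Chow replicate 2 was the lowest chow library for all 4 metabolic members and for 19 of the 20 other pericentral hepatocyte genes listed, compared with 4983 of all 12949 genes tested (38.5%). Oat, an ornithine aminotransferase expressed in the same cells as Glul, had 1142 CPM in that library, against 3151 and 2891 CPM in chow replicates 1 and 3. The signalling members did not share this order. Chow replicate 2 was the highest chow library for 4 of the 6 (Rnf43, Tbx3, Axin2 and Sp5), compared with 4378 of all 12949 genes tested (33.8%). Chow replicate 3 was the lowest for 5 of the 6, compared with 4109 of all 12949. Among the HFHS libraries, replicate 3 was the highest for all 4 metabolic members and for 11 of the 20 other pericentral genes. Over all 12949 genes tested it was the highest for 4308.

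Other pericentral hepatocyte genes fell in 4 of 20 tested, and the other 16 did not pass. The median log2 fold change of the 20 was -0.64, beside -0.52 for the 12 hepatocyte markers. The 4 were drug-metabolising cytochromes P450 of the Cyp2c family, whose similar sequences make the split of reads between them uncertain. Cyp2c37 had 120, 181 and 162 CPM in the HFHS libraries, against 630, 531 and 864 CPM in chow, with no overlap (log2 fold change -2.13 ± 0.25 SE; edgeR adjusted p = 0.00775). Cyp2c29 (-1.97 ± 0.40), Cyp2c54 (-2.10 ± 0.47) and Cyp2c50 (-1.58 ± 0.30) fell as well. Oat had 528, 327 and 1479 CPM in the HFHS libraries and a log2 fold change of -1.62 ± 0.63 that did not pass (edgeR adjusted p = 0.128), and passed without HFHS replicate 3 (-2.49, adjusted p = 0.0288). Cyp2e1, the ethanol-oxidising P450 that marks the pericentral zone, had 4194, 5683 and 9520.3 CPM in the HFHS libraries, against 11277, 7923 and 11332 CPM in chow, and Cyp1a2 239, 538 and 247 CPM in the HFHS libraries, against 648, 624 and 713 CPM in chow. Neither passed, but Cyp1a2 did without HFHS replicate 2 (-1.44, adjusted p = 0.00258) and with DESeq2 (adjusted p = 0.0175). Slc13a3, a dicarboxylate transporter, had the smallest p among the genes with a positive value (1.14 ± 0.55) and did not pass. Leaving out chow replicate 1 left 1 call in this list, leaving out replicate 2 left 2, and leaving out replicate 3 left 0 by edgeR, with 4 at an unadjusted p under 0.05.

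Periportal hepatocyte genes, which mark the opposite end of the lobule, fell in 7 of 20 tested, with a median log2 fold change of -0.92. Hal, the histidine-degrading ammonia lyase, averaged 123 ± 33.4 CPM in the HFHS group and 463 ± 125 CPM in chow (SD, n = 3 each; log2 fold change -1.91 ± 0.28 SE). The arginine transporter Slc7a2 (-1.27 ± 0.24), the gluconeogenic enzyme Pck1 (-1.62 ± 0.39) and the liver glutaminase Gls2, which frees ammonia from glutamine (-1.65 ± 0.38), also fell, as did Asl, Otc and Pigr. Cyp2f2, a classic periportal marker, had 747, 236 and 580.3 CPM in the HFHS libraries, against 1056, 1842 and 1488 CPM in chow, with no overlap, and did not pass (edgeR adjusted p = 0.0575). It passed without HFHS replicate 2 (-1.13, adjusted p = 0.0321) and with DESeq2 (adjusted p = 0.00102). Ctsc had the smallest p among the genes with a positive value (0.59 ± 0.18) and did not pass, but did with DESeq2 (adjusted p = 0.0245) and with upper-quartile, library-size and hepatocyte marker scaling. The number called lower was 2 when chow replicate 1 was left out, 1 when replicate 2 was, and by edgeR 0 when replicate 3 was, with 9 at an unadjusted p under 0.05. Whether the members differed from either zonal list was not tested.

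**Figure D4:**
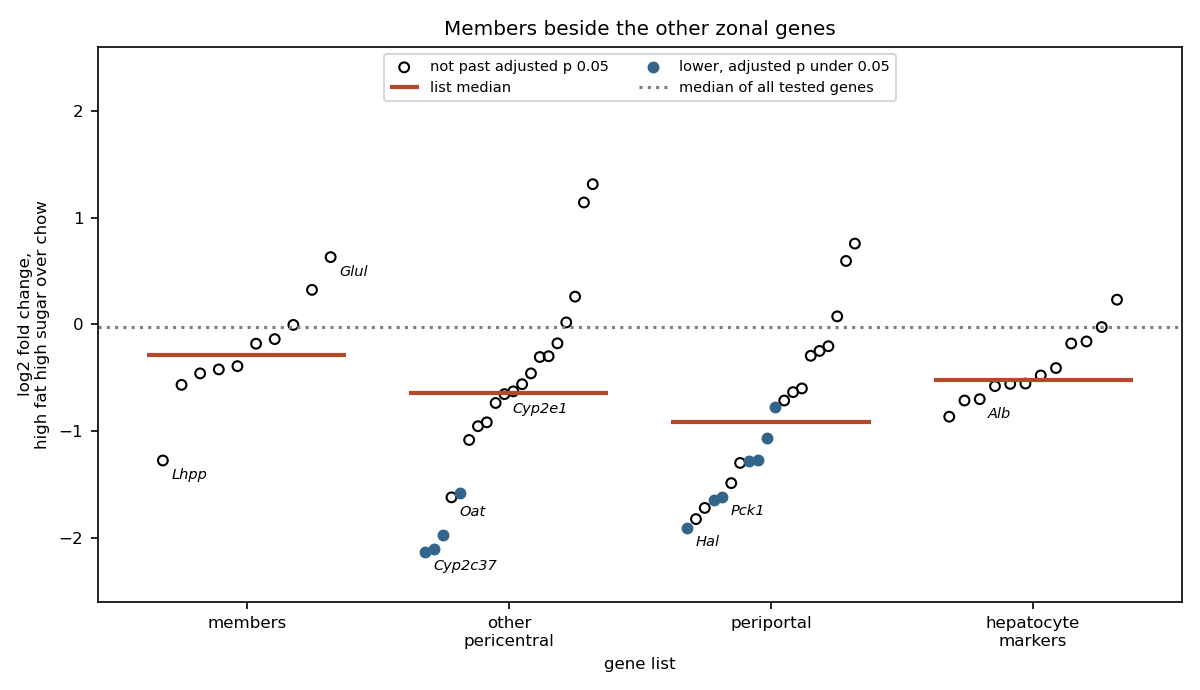
Log2 fold change, HFHS over chow (y axis), of each tested gene of 4 lists (x axis). Filled points passed an adjusted p of 0.05, open points did not, bars are list medians and the dotted line is the median of all tested genes. No member is filled, while 4 other pericentral and 7 periportal genes are, all below 0.

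The Wnt sources around the central vein were near the limit of these libraries. Of 19 Wnt ligand genes 6 could be tested, and the other 13 had too few counts, 3 of them with 0 counts in every library. Wnt2 and Wnt9b are the ligands that liver endothelial cells are known to make. Wnt2 had 2.07, 1.42 and 3.85 CPM in the HFHS libraries, against 1.78, 1.92 and 2.02 CPM in chow, and Wnt9b 2.22, 0.847 and 1.40 CPM in the HFHS libraries, against 0.834, 0.550 and 1.28 CPM in chow. Both overlapped between diets and did not pass. Wnt4 rose, with 3.72, 5.93 and 3.13 CPM in the HFHS libraries, against 1.95, 1.37 and 0.943 CPM in chow (log2 fold change 1.58 ± 0.36 SE; edgeR adjusted p = 0.0290), a call that was lost without chow replicate 2 (adjusted p = 0.0919) or chow replicate 3 (adjusted p = 0.108). Wnt5a (1.11 ± 0.32) was separated and did not pass (adjusted p = 0.0550 by the same test), but passed without HFHS replicate 3 (adjusted p = 0.0424), with DESeq2 (adjusted p = 0.0262) and with upper-quartile, library-size and hepatocyte marker scaling, and Wnt9a had the one negative value (-0.30 ± 0.43). Wnt4 and Wnt5a are not among the genes listed for central vein endothelium below. Both had their highest level in HFHS replicate 2, and the part of other cell types was not tested. Rspo3, the R-spondin of central vein endothelium, had 6.46, 8.43 and 10.6 CPM in the HFHS libraries, against 5.84, 6.43 and 4.85 CPM in chow. Its groups were just separated, and its log2 fold change of 0.57 ± 0.22 did not pass (edgeR adjusted p = 0.122), but did when scaled by hepatocyte markers (1.05, adjusted p = 0.0202). Rspo1, Rspo2 and Rspo4 had too few counts to test.

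Of the 8 genes listed for central vein endothelium, Rspo3 among them, 2 rose, the thrombomodulin gene Thbd (1.69 ± 0.25) and the stem cell factor receptor Kit (0.91 ± 0.20). Lhx6 (0.96 ± 0.35) did not pass. General endothelial markers, 6 of 10 of which rose, moved in the same direction, and their part in these values was not tested. The count was 1 without HFHS replicate 1 or chow replicate 2, 3 without chow replicate 1, where Lhx6 passed (1.40), and by edgeR 0 without chow replicate 3, with 2 at an unadjusted p under 0.05.

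Among Wnt receptors and co-receptors 11 of 17 could be tested, and 2 fell. Lgr4, an R-spondin receptor related to Lgr5, had 48.7, 37.1 and 43.0 CPM in the HFHS libraries, against 72.6, 75.3 and 75.6 CPM in chow. No library overlapped, and its spread was small (log2 fold change -0.80 ± 0.12 SE; edgeR adjusted p = 0.0118). The Frizzled gene Fzd8 had 9.30, 8.77 and 14.7 CPM in the HFHS libraries, against 21.7, 20.02 and 21.8 CPM in chow (-0.96 ± 0.20). Few genes of any kind passed without chow replicate 3 (4 higher and 2 lower of 13305). The call of Lgr4 was lost there (log2 fold change -0.80, adjusted p = 0.0619). That of Fzd8 was lost without HFHS replicate 1 (adjusted p = 0.0619) or any 1 chow library (adjusted p from 0.0642 to 0.0933). Both were lost when libraries were scaled by hepatocyte markers (-0.32 and -0.48). The co-receptor Lrp5 had the smallest p on the other side (0.48 ± 0.16) and did not pass. It passed without HFHS replicate 3 (0.60), with library size only (0.75, adjusted p = 0.0304) and with hepatocyte marker scaling (0.96, adjusted p = 0.00900).

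Of the 16 genes listed as secreted Wnt inhibitors, which include membrane proteins such as Kremen1, 5 could be tested and 2 rose. Frzb, a Frizzled-like decoy, had 4.65, 9.47 and 4.69 CPM in the HFHS libraries, against 1.84, 0.990 and 0.673 CPM in chow (2.41 ± 0.45), and Dkk3 had 5.94, 17.4 and 5.98 CPM in the HFHS libraries, against 3.11, 2.31 and 1.68 CPM in chow (2.04 ± 0.49). Frzb and Dkk3 had their highest level in HFHS replicate 2, the library with the highest stellate cell and bile duct sums, and the part of those cells was not tested. Notum, a hydrolase that inactivates Wnt ligands and is itself a Wnt target in pericentral hepatocytes, had 19.2, 33.6 and 23.2 CPM in the HFHS libraries, against 32.5, 28.5 and 33.3 CPM in chow (-0.31 ± 0.20), and fell without HFHS replicate 2 (-0.56, adjusted p = 0.0368). Frzb lost its call without chow replicate 2 or 3 (adjusted p = 0.0644 and 0.0772), and Dkk3 without any 1 chow library (adjusted p from 0.0676 to 0.132).

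Inside the cell, 1 of 23 tested genes of the pathway rose and the other 22 did not pass, with a median log2 fold change of -0.07. Wls, the carrier that brings Wnt proteins to the surface of the cells that make them, had 12.8, 25.4 and 13.9 CPM in the HFHS libraries, against 4.39, 6.27 and 5.05 CPM in chow (1.73 ± 0.30), and lost its call without chow replicate 3 (adjusted p = 0.0772). Wls too had its highest level in HFHS replicate 2, and the part of other cell types was not tested. β-catenin, Ctnnb1, had 263, 288 and 248 CPM in the HFHS libraries, against 257, 272 and 243 CPM in chow, a log2 fold change of 0.05 ± 0.14. The transcription partner Tcf7l2 (-0.02 ± 0.17) and the feedback inhibitor Nkd1 (0.12 ± 0.23) did not pass either. Bcl9l, a β-catenin coactivator (-0.43 ± 0.13), and Ctnnbip1, which blocks β-catenin from its partners (-0.60 ± 0.21), had the next smallest p and did not pass, except Bcl9l with DESeq2 (adjusted p = 0.0415).

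Other genes known as Wnt targets in gut or tumours rose in 3 of 9 tested. Ephb2, a receptor kinase, had 12.7, 19.01 and 24.9 CPM in the HFHS libraries, against 0.389, 0.110 and 0.135 CPM in chow (11 counts over the chow group, which leaves the fold uncertain). Its log2 fold change was 6.41 ± 0.45 (SE; edgeR adjusted p = 0.00517). Tnfrsf19 had 19.3, 20.2 and 20.4 CPM in the HFHS libraries, against 13.3, 8.41 and 9.16 CPM in chow (0.95 ± 0.18), and the adhesion receptor Cd44, also a leukocyte gene, had 23.2, 54.3 and 17.5 CPM in the HFHS libraries, against 10.1, 5.17 and 6.40 CPM in chow (2.14 ± 0.48). Of these, Ephb2 alone passed without each library in turn. Tnfrsf19 did not pass without chow replicate 2 or 3 (adjusted p = 0.0614 and 0.0885), nor Cd44 without any 1 chow library (adjusted p from 0.0557 to 0.123). Of the tested genes, Notum, Nkd1, Tcf7 and Sox9 stand in this list and in those above, Sox9 among the bile duct markers. Cps1 is both a listed periportal gene and a hepatocyte marker. Wnt2, Wnt9b and Rspo3 are also among the genes listed for central vein endothelium.

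**Figure D5:**
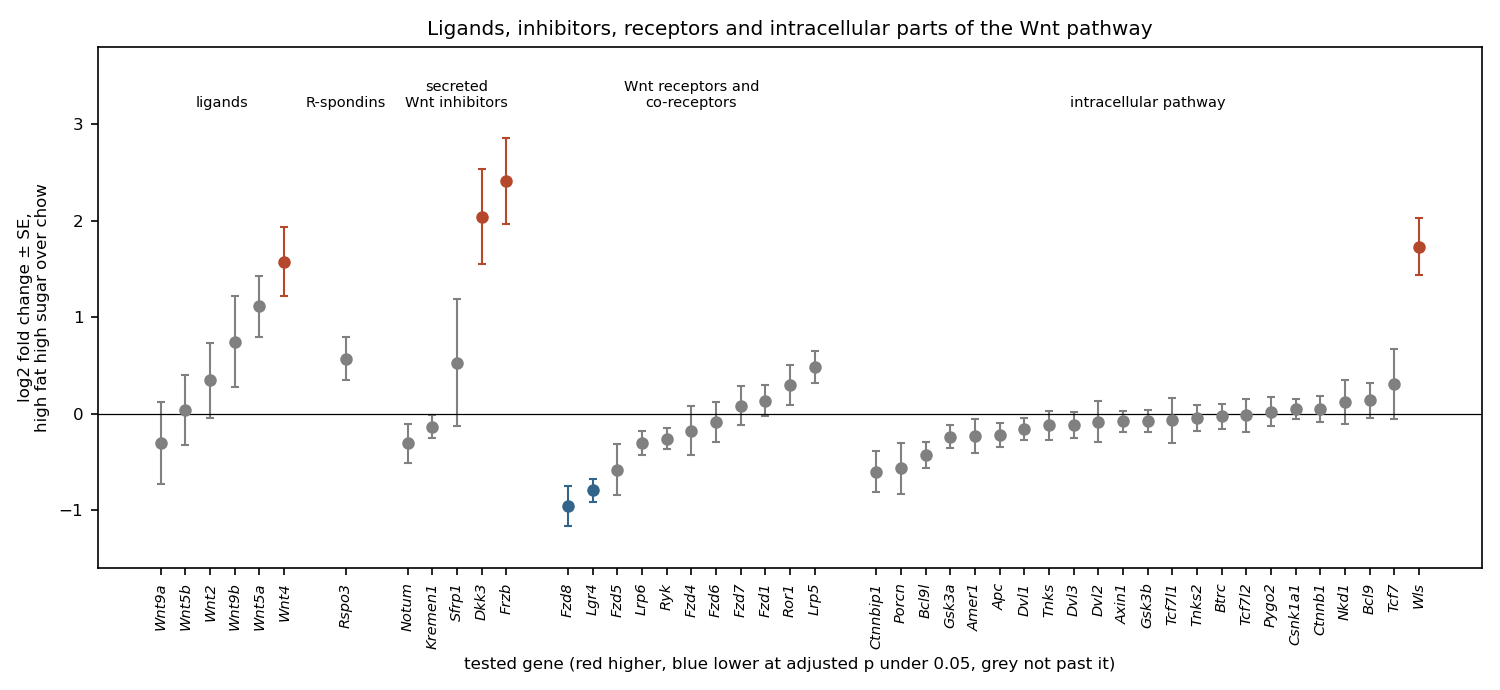
Log2 fold change with SE, HFHS over chow (y axis), of each tested gene listed as ligand, R-spondin, secreted inhibitor, receptor or intracellular part of the Wnt pathway (x axis). Red points passed an adjusted p of 0.05 upward (Wnt4, Dkk3, Frzb, Wls), blue ones downward (Fzd8, Lgr4), and grey ones did not pass.

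The genes closest to Glul in pattern, among 10660 named genes with a mean count of at least 50, were Jak3, Mal2, Fam102a, Bcl6b and Podn, with a root-mean-square difference of centred log2 CPM of 0.10 to 0.15 over the 6 libraries. For Axin2 they were Nek6, Tmem199, Lyrm7, Eipr1 and Cenpa (0.10 to 0.12). No other member was among them, and Sp5, with a mean count of 43, was not a candidate.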

How the data were processed

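Liver polyA RNA of 6 samples was sequenced. Per the submitters' processing notes, reads were aligned with STAR to mm10. For the counting program, annotation and strand setting the sources used here give nothing. The deposited values are whole-number counts per gene, unnormalised, 1 table per library. The rows for reads outside genes (7.74% to 10.6% of all counts) and for ambiguous reads (0.615% to 0.862%) were left out.

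Samples were grouped by the diet label. The labels do not say that each sample came from its own animal, so a p-value may measure technical spread only. File names are built differently for each diet, so handling and diet cannot be told apart. No pair within a group was a copy (chi-square per gene at least 23.5).

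Genes were filtered with filterByExpr (minimum count 10), which left 12949 of 24982. The diet effect came from edgeR's quasi-likelihood F test (TMM, robust, no covariate), with Benjamini-Hochberg adjustment over all genes tested and a threshold of 0.05. The SE is the log2 fold change divided by the square root of F, and 95% intervals use the t quantile of the fit. Versions were R 4.3.3, edgeR 4.0.16, limma 3.58.1 and DESeq2 1.42.0. Scripts were tested on simulated counts. Alternatives were other scalings, filters and tools, a replicate block, a minimum fold of 1.5 and leaving out each library.

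Members and gene lists were chosen with earlier results of these data known. Named by rule are all members, 15 genes fixed by name, and the 5 genes nearest in pattern to Glul and to Axin2. So are the 3 smallest p of each zonal, Wnt and central vein list, plus the smallest in its minority direction. Asl, Otc, Pigr and Cyp2c54 complete counts, chosen with their values in view. Alb, Trf, the liver tumour markers, Kremen1, Tcf7, Sox9, Cps1, Rspo1, Rspo2 and Rspo4 were also named outside the rule, to describe their lists.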

Additional observations from a re-analysis of the deposited data

How the results depend on the processing

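Members called higher came to 1 with library size only (Glul), 2 with hepatocyte marker scaling (Glul and Axin2) and 1 with DESeq2 (Glul), and members called lower to 1 with DESeq2 and 1 with the replicate block (Lhpp in both), and to 0 to 1 with 1 library left out. Same-numbered samples did not deviate together (correlations of -0.25, -0.17 and 0.03 for replicates 1, 2 and 3), so the numbers were not taken to pair them. With the replicate block 961 genes were higher and 282 lower. In that edgeR fit Gls2 (adjusted p = 0.0546), Kit (adjusted p = 0.0581) and Cd44 (adjusted p = 0.0891) did not pass, while Lhpp (adjusted p = 0.0380), Oat (adjusted p = 0.0352), Lhx6 (adjusted p = 0.0447) and Mal2 (adjusted p = 0.0432) did. Over all genes, the TMM fit of edgeR called 1428 higher and 468 lower (75.3% of calls higher). The counts were 1928 and 200 with library size only (90.6%), 4739 and 152 with hepatocyte marker scaling (96.9%), 1811 and 974 with DESeq2 (65.0%) and 553 and 72 with a minimum fold of 1.5 (88.5%). With 1 library left out they ran from 4 to 1664 higher and from 2 to 772 lower, the lowest without chow replicate 3. List counts moved as follows. With hepatocyte marker scaling 1 other pericentral, 1 periportal, 2 Wnt ligand, 1 R-spondin, 1 receptor, 3 intracellular and 5 central vein genes were higher and 0 receptors lower. With library size only 1 periportal, 2 ligand and 1 receptor genes were higher, and with upper-quartile scaling 1 periportal and 2 ligand genes. With DESeq2 1 periportal and 2 ligand genes were higher, and 7 other pericentral, 11 periportal and 1 intracellular genes lower. With the replicate block 4 periportal genes were lower, and with limma-voom 1 inhibitor was higher. With a minimum fold of 1.5, 0 ligands, 1 inhibitor, 1 other target and 1 central vein gene were higher, and 1 other pericentral, 1 periportal and 0 receptor genes lower. With 1 library left out, other pericentral genes lower ran from 0 to 5, periportal from 0 to 8 and receptors from 0 to 3. Ligands higher ran from 0 to 2, receptors from 0 to 1, inhibitors from 0 to 3 (0 to 1 lower), intracellular genes from 0 to 1, other targets from 1 to 3 (0 to 1 lower) and central vein genes from 0 to 3. Signs turned for values that had not passed. With hepatocyte marker scaling these were Lgr5 (0.10), Tbx3 (0.030), Rnf43 (0.31), Znrf3 (0.51), Rhbg (0.052), Sp5 (0.31), Tcf7l2 (0.49), Notum (0.22), Wnt9a (0.21) and Bcl9l (0.057). With library size only they were Rnf43 (0.094), Znrf3 (0.29), Sp5 (0.090) and Tcf7l2 (0.27), with upper-quartile scaling Znrf3 (0.087) and Tcf7l2 (0.073), and with a mean CPM of at least 1 Znrf3 (0.012). With 1 library left out, values ran from -0.21 to 0.14 for Znrf3, -0.48 to 0.13 for Sp5, -0.39 to 0.11 for Rnf43, -0.14 to 0.64 for Wnt2, -0.0017 to 0.090 for Ctnnb1, -0.15 to 0.11 for Tcf7l2 and -0.021 to 0.29 for Nkd1. The cause of each change was not tested.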

Other observations

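Among the members, Tbx3 and Sp5 were closest in pattern over the 6 libraries, with a root-mean-square difference of centred log2 CPM of 0.27, followed by Lgr5 and Rnf43 (0.28) and by Slc1a2 and Rhbg (0.29). Lhpp and Axin2 were farthest apart (1.07). Glul counts relative to those of Oat, which shares its zone, were 3.41, 4.68 and 1.26 in HFHS replicates 1, 2 and 3, against 0.441, 0.686 and 0.408 in chow replicates 1, 2 and 3, with no overlap. Here too Glul was put on top as the separated member, and the share of all genes with a separated ratio was not counted. Its ratios to Cyp2e1 and Alb were separated as well. Chow replicate 1 was the lowest chow library for 13 of the 20 periportal genes and replicate 3 for 0 of them. Over all 12949 genes tested the numbers were 3857 and 4109.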
